A study of Mus musculus with 6 samples.

Results

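Klf2, Klf3, Klf6, S1pr1, Ccr7, Cxcr3, Cxcr4 and Cd69 are transcription factors and surface proteins that set where a T cell goes. They were chosen by gene name from the deposited expression table, and all 8 had a row of their own among its 27480 genes. The 6 libraries came from mouse OT1 CD8+ T cells, which carry a transgenic T cell receptor for an ovalbumin (OVA) peptide. The vector group (3 libraries) is labelled as overexpression (OE) vector. The PTMA group (3 libraries) is labelled as overexpression of PTMA, prothymosin alpha. Both groups are given as genotype WT and both had 48 h of stimulation by OVA peptide, so no group was left unstimulated. The labels give neither the species of the construct nor whether each replicate was an animal or culture of its own, so the p-values rest on a spread between libraries that may be technical. Bulk RNA was measured, so fewer cells of a kind and less RNA per cell cannot be told apart.

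KLF proteins are zinc finger transcription factors that bind CACCC boxes and GC-rich DNA. In resting T cells KLF2, itself driven by FOXO1, switches on the egress receptor gene S1pr1, and T cell receptor signalling lowers it. S1PR1 senses sphingosine 1-phosphate and lets T cells leave lymph nodes, CD69 pulls S1PR1 off the surface of activated cells, and CCR7, CXCR3 and CXCR4 are chemokine receptors that guide cells to lymphoid, inflamed and stromal sites.

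Total counts ran from 54989408 to 66767589 per library. Vector replicate 3 stood apart from its group: the chi-square per gene was 52.7 and 84.8 against vector replicates 1 and 2, which differed from each other by 17.7. Ptma, read to check the labels, was at 848, 783 and 1146 CPM (counts scaled to library size, with TMM factors) in vector replicates 1 to 3 and at 1152, 1346 and 1272 CPM in PTMA replicates 1 to 3. All PTMA libraries were above all vector libraries, with vector replicate 3 just below PTMA replicate 1. The log2 fold change of Ptma was 0.44 (SE 0.13), or 1.36-fold, with an edgeR unadjusted p of 0.00900 and an adjusted p of 0.951. With a library left out it ran from 0.34 (without vector replicate 2) to 0.62 (without vector replicate 3). The lowest edgeR adjusted p of those fits was 0.0724, without vector replicate 3. All 10 CD8 T cell markers listed (Cd8a, Cd3e, Lck and others) were detected. Their summed levels were 6947 to 7441 CPM in vector and 7044 to 7580 CPM in PTMA libraries. The 5 CD4 and regulatory T cell markers listed summed to 97.3 to 145 CPM in vector and 109 to 138 CPM in PTMA libraries. Cd4 itself was at 0.80 and 0.73 CPM on average, so nearly all of that sum came from the other markers of the list. Myeloid markers, of which 6 of 10 were read, summed to 9.77 to 12.7 and 12.5 to 14.3 CPM. NK cell markers summed to 15.2 to 18.5 and 15.9 to 17.6 CPM. The part of other cells was not tested.

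None of the 8 genes passed the test of PTMA against vector. In edgeR's quasi-likelihood test over 16592 genes, with Benjamini-Hochberg adjusted p below 0.05 as the threshold, 2 genes passed (0.0121%), 0 higher in PTMA (0%) and 2 lower (0.0121%), and neither is among the 8. At an unadjusted p below 0.05 stood 1 of the 8, Klf3, against 771 of all genes (4.65%), 319 of them higher (1.92%) and 452 lower (2.72%) in PTMA. That background count moved with single libraries, to 2618 without vector replicate 3, 402 without vector replicate 1 and 437 without PTMA replicate 2, and to 442 with the replicate number as a block. DESeq2 passed 47 genes and limma on FPKM passed 1 or 2, again with none of the 8. Of the 8 fold changes 4 were positive and 4 negative, with a median of 0.00071 on the log2 scale beside -0.015 over all genes tested. In 7 of the 8 genes the groups overlapped and in 1, Klf3, they did not, where 10.8% of all genes had groups that did not overlap (5.38% with PTMA below, 5.39% with PTMA above).

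The KLF genes differ in what lies upstream of them, and these sequences are shown because KLF proteins can bind the promoters of other KLF genes. RefSeq promoters (GRCm38.p6) were found for 5 of the 8 genes, Klf2, Klf3, Klf6, Cxcr3 and Cxcr4. The stretch searched was the 250 bases before the RefSeq start, and the stretch shown ends before the gene start of the expression table. CACCC was searched on both strands (GGGTG on the other), and capitals mark its matches. Klf3 is shown on the plus strand of chr5:64803271-64803387, Klf2 on the plus strand of chr8:72318812-72319032 and Klf6 on the plus strand of chr13:5861239-5861481, each 5′ to 3′.
Klf3: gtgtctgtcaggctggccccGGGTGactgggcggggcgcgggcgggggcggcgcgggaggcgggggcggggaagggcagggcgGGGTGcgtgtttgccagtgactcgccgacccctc
Klf2: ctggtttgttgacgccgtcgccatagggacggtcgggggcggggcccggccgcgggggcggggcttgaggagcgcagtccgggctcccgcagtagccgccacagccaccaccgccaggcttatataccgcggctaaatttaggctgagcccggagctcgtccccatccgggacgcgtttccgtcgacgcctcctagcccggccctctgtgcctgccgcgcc
Klf6: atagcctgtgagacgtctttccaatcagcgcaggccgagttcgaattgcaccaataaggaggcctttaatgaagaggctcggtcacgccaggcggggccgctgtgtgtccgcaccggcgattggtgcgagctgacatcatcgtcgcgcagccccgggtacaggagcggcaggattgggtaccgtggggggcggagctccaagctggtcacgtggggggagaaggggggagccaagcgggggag
In the full 250 bases Klf3 held 5 matches to CACCC, of which 2 lie in the stretch shown and the rest past the gene start named above. Klf2 and Cxcr4 held 1 each, that of Klf2 also past its gene start, and Klf6 and Cxcr3 held 0. Of 32851 promoters of this length, 52% held at least 1 match and 2.14% held 4 or more. The GC box, GGGCGG on either strand, was matched 6 times for Klf3, 2 times for Klf2, 1 time for Klf6, 3 times for Cxcr4 and 0 times for Cxcr3. For Klf3 the match nearest the RefSeq start lies past the gene start. The GC box was found in 32.7% of all promoters, 4.09% having 4 or more. In Klf3 a GC box that starts 172 bases before the RefSeq start shares its last base with the CACCC match that starts 167 bases before it. GC content of the 250 bases was 78.4% for Klf3, 71.2% for Klf2, 64.8% for Klf6, 61.2% for Cxcr4 and 48.0% for Cxcr3. These matches describe letters and are not binding sites shown by data.

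Klf2 (ENSMUSG00000055148, protein coding, GRCm38 chromosome 8, 72319033 to 72321656, plus strand), the KLF factor of T cell quiescence and egress, was read by 2202 to 2719 counts per library. It stood at 47.9, 37.6 and 35.5 CPM in vector replicates 1 to 3 and at 36.2, 37.7 and 41.4 CPM in PTMA replicates 1 to 3. Vector replicate 1 was the highest of all 6 libraries, and the other 5 mixed without regard to group. The means were 40.3 ± 6.61 and 38.4 ± 2.64 CPM (SD, n = 3 per group), a log2 fold change of -0.069 (SE 0.12). The 95% interval of that difference ran from -21.4% to 15.6% (edgeR adjusted p = 0.962). Without vector replicate 1 the log2 fold change of Klf2 was 0.076, so the sign of this small difference rested on 1 library.

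Klf3 (ENSMUSG00000029178, protein coding, chromosome 5, 64803388 to 64832901, plus strand) encodes a KLF factor best known as a repressor that recruits CtBP. It stood at 10.0, 8.64 and 7.17 CPM in vector replicates 1 to 3 and at 6.39, 5.65 and 5.26 CPM in PTMA replicates 1 to 3. Every PTMA library was below every vector library, and vector replicate 3 came nearest to the PTMA group. With 346 to 562 counts per library, Klf3 was among the least counted of the 8 genes. Its means were 8.62 ± 1.43 CPM in vector and 5.77 ± 0.57 CPM in PTMA, a log2 fold change of -0.58 (SE 0.17), or a difference of -33.0% with a 95% interval of -48.4% to -13.1% that is not corrected for the number of genes. The unadjusted p was 0.00692, a value that 84 of the 16592 genes reached or went below, and the edgeR adjusted p was 0.951. Leaving out each library in turn gave log2 fold changes of -0.69 to -0.45 and adjusted p-values of 0.162 to 0.9999, the lowest of them without vector replicate 3. The difference was negative in all 15 alternatives that tested Klf3, with an unadjusted p below 0.05 in 14 of them. The exception, limma on log2(FPKM + 0.1) with the lower filter added after seeing the data (a mean FPKM of at least 0.1), gave -0.49 with an unadjusted p of 0.0600 and an adjusted p of 0.965. In the annotation, 2 other genes overlap Klf3, Gm20033 on the opposite strand and C230096K16Rik on the same strand, with at most 8 and 6 counts in any library. Whether the counting used strand is not given in the sources used here.

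Klf6 (ENSMUSG00000000078, protein coding, chromosome 13, 5861482 to 5870394, plus strand), a broadly expressed KLF factor induced early in many cells, was the steadiest of the 8. It stood at 122, 121 and 123 CPM in vector replicates 1 to 3 and at 131, 118 and 119 CPM in PTMA replicates 1 to 3. PTMA replicate 1 was above the rest, and the other 5 libraries lay close together. The log2 fold change was 0.0084 (SE 0.069), with a 95% interval of -9.74% to 12.1% and an edgeR adjusted p of 0.991.

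S1pr1 (ENSMUSG00000045092, protein coding, chromosome 3, 115710433 to 115715072, minus strand), the egress receptor, stood at 73.0, 69.3 and 74.0 CPM in vector replicates 1 to 3. In PTMA replicates 1 to 3 it stood at 69.9, 67.5 and 57.8 CPM. The groups overlapped through PTMA replicate 1, which was above vector replicate 2, and PTMA replicate 3 was the lowest library. The means were 72.1 ± 2.48 and 65.1 ± 6.43 CPM, a log2 fold change of -0.15 (SE 0.089) with a 95% interval of -21.6% to 3.89% (edgeR adjusted p = 0.951). Leaving out PTMA replicate 3 moved the log2 fold change to -0.065, the smallest value over the libraries left out in turn. Endothelial cells also express S1pr1. Of the stroma and endothelium markers, 7 of 10 were read, with summed levels of 205 to 208 CPM in vector and 212 to 217 CPM in PTMA libraries, nearly all of it Pecam1 (201 ± 4.12 and 212 ± 1.89 CPM), which T cells also express. Of 5 of these markers tested, 2 had a positive and 3 a negative fold change, with a median of -0.70 on the log2 scale. Cdh5, Kdr and Lyve1 were not found by name among the 27480 genes. The part of these cells in the S1pr1 values was not tested.

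Cd69 (ENSMUSG00000030156, protein coding, chromosome 6, 129267325 to 129275436, minus strand), the activation marker that holds S1PR1 inside the cell, stood at 101, 89.8 and 90.5 CPM in vector replicates 1 to 3. In PTMA replicates 1 to 3 it stood at 110, 89.6 and 100.3 CPM. PTMA replicates 1 and 2 were the highest and the lowest of all 6 libraries, so the vector values lay inside the PTMA range. The log2 fold change was 0.094 (SE 0.093), with a 95% interval of -7.75% to 23.6% and an edgeR adjusted p of 0.952. Per unit of length, in FPKM, Cd69 over S1pr1 was 0.647, 0.606 and 0.572 in vector replicates 1 to 3. The same FPKM ratio was 0.738, 0.620 and 0.812 in PTMA replicates 1 to 3, so that the groups overlapped.

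Ccr7 (ENSMUSG00000037944, protein coding, chromosome 11, 99144196 to 99155077, minus strand), the receptor for CCL19 and CCL21 that brings cells into lymph nodes, was the most counted of the 8, with 18994 to 24237 counts per library. It stood at 339, 360 and 330 CPM in vector replicates 1 to 3 and at 373, 342 and 332 CPM in PTMA replicates 1 to 3. PTMA replicate 1 was the highest library and vector replicate 3 the lowest, with the others mixed between them. The log2 fold change was 0.026 (SE 0.070), with a 95% interval of -8.74% to 13.5% and an edgeR adjusted p of 0.978.

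Mature dendritic cells also express Ccr7, and B cells express both Ccr7 and Cxcr4. Of the dendritic markers, 9 of 12 were read, and Clec9a, Cd209a and Siglech were not found by name among the 27480 genes. The 9 summed to 14.9 to 16.7 CPM in vector and 21.7 to 26.8 CPM in PTMA libraries, which do not overlap. Of the 8 tested, 5 had a positive and 3 a negative fold change, with a median of 1.301 on the log2 scale. Of these 8, 0 passed the threshold. At an edgeR unadjusted p below 0.05 stood 3, all with a positive fold change, where 1.92% of all genes tested did. The chemokine gene Ccl22 stood at 2.09, 0.85 and 0.71 CPM in vector and at 5.99, 8.42 and 5.86 CPM in PTMA replicates 1 to 3. Fscn1, which encodes an actin-bundling protein of mature dendritic cells, was at 0.25 CPM on average in vector and 1.71 CPM in PTMA libraries, and Cacnb3 was at 0.29 and 1.67 CPM. Their edgeR adjusted p-values were 0.318 for Fscn1, 0.239 for Cacnb3 and 0.199 for Ccl22. The lineage factor gene Zbtb46 was at 2.49 and 1.73 CPM on average and the integrin gene Itgax at 3.38 and 2.75 CPM. Flt3, a growth factor receptor gene, was at 0, 0 and 0.32 CPM in vector and at 1.001, 0.75 and 0.27 CPM in PTMA replicates 1 to 3. Of the B cell markers, 9 of 10 were read, summing to 5.17 to 6.79 CPM in vector and 6.44 to 7.87 CPM in PTMA libraries. Of 5 B cell markers tested, 2 had a positive and 3 a negative fold change, with a median of -0.23 on the log2 scale, and at an unadjusted p below 0.05 stood 1 of each sign. Their part in the Ccr7 and Cxcr4 values was not tested.

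Cxcr3 (ENSMUSG00000050232, protein coding, chromosome X, 101731535 to 101734269, minus strand), the receptor for CXCL9, CXCL10 and CXCL11 on effector T cells, stood at 69.7, 61.5 and 66.1 CPM in vector replicates 1 to 3. In PTMA replicates 1 to 3 it stood at 68.0, 68.9 and 65.0 CPM. All PTMA values lay inside the vector range. Its log2 fold change was 0.034 (SE 0.08), with a 95% interval of -9.38% to 15.7% and an edgeR adjusted p of 0.975.

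Cxcr4 (ENSMUSG00000045382, protein coding, chromosome 1, 128588199 to 128592293, minus strand), the receptor for CXCL12, was thinly counted, with 238 to 381 counts per library. It stood at 6.27, 5.27 and 3.84 CPM in vector replicates 1 to 3 and at 4.65, 5.83 and 4.81 CPM in PTMA replicates 1 to 3. Vector replicates 1 and 3 were the highest and the lowest of all 6. Its log2 fold change of -0.0070 (SE 0.21) had the widest interval of the 8, -28.1% to 37.8% (edgeR adjusted p = 0.997). That interval, not corrected for the number of genes, spans the differences these values allow and is not a limit of detection.

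**Figure D1:**
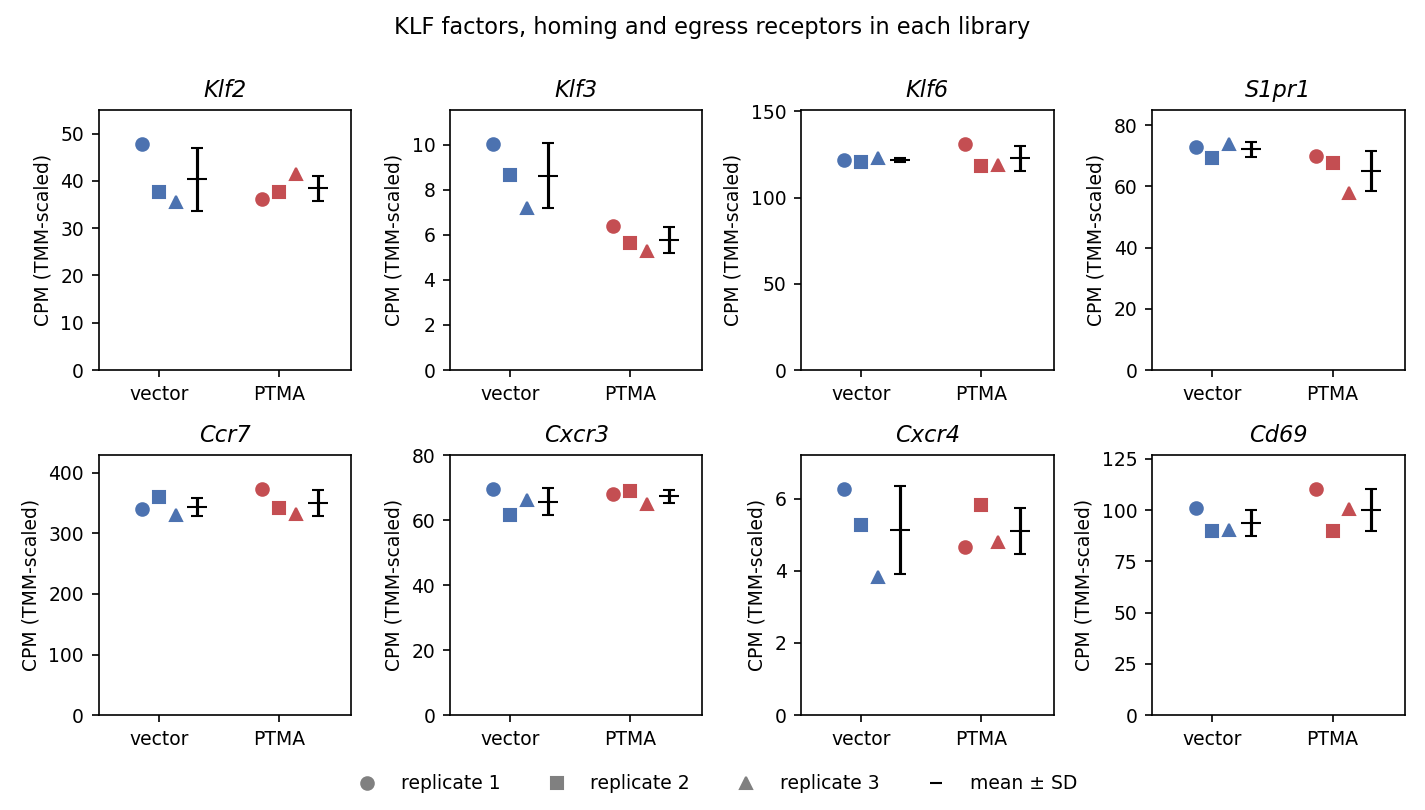
TMM-scaled CPM (vertical axis, from 0) of the 8 genes in each library of the vector group (blue) and the PTMA group (red), with circles, squares and triangles for replicates 1 to 3 and bars for mean ± SD (n = 3). Klf3 is the gene whose groups do not overlap (7.17 to 10.0 against 5.26 to 6.39 CPM), and Klf6 shows the least spread.

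**Figure D2:**
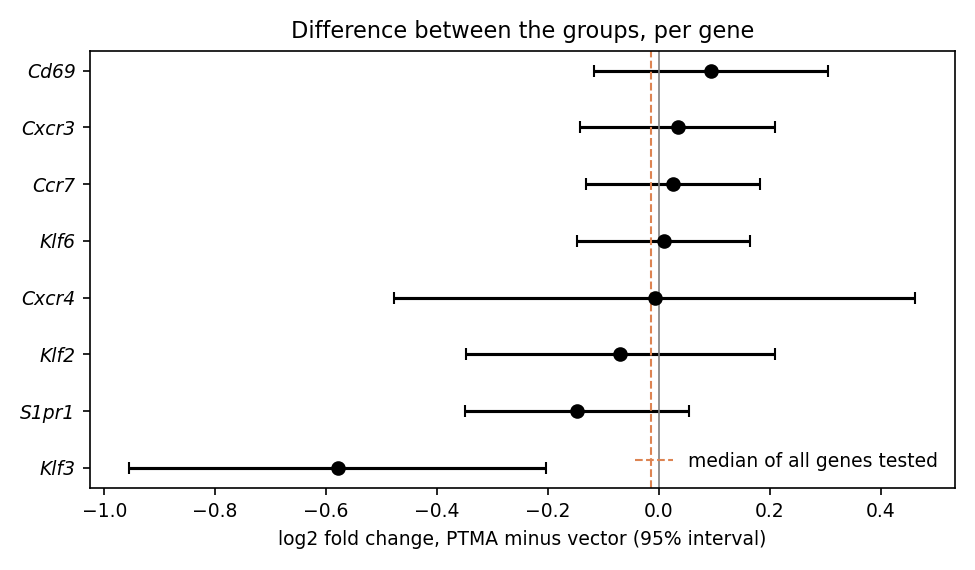
Log2 fold change of each gene, PTMA minus vector (points), with its 95% interval (bars), from edgeR, and the median of all genes tested (dashed line). The interval of Klf3, not corrected for the number of genes, runs from -0.95 to -0.20, and those of the other 7 genes include 0.

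The plot of CPM by library also shows how unevenly the 8 genes varied. Over all 6 libraries the coefficient of variation of CPM was 3.89% for Klf6, 4.53% for Cxcr3, 4.90% for Ccr7, 8.47% for S1pr1 and 8.70% for Cd69. It was 11.7% for Klf2, 17.1% for Cxcr4 and 25.6% for Klf3. Among 9948 genes with a mean of at least 5 CPM the median was 9.0%, with quartiles of 6.44% and 12.6%, so Klf6, Cxcr3 and Ccr7 lay under the lower quartile and Cxcr4 and Klf3 above the upper one. Vector replicate 1 was the highest of its group in 5 of the 8 genes and PTMA replicate 1 in 5 of the 8. The lowest vector value came from replicate 3 for Klf2, Klf3, Ccr7 and Cxcr4 and from replicate 2 for the other 4.

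Levels of different genes were compared per length, in the FPKM of the table. In vector libraries Ccr7 led with 156 ± 13.5 FPKM, followed by Cxcr3 with 34.1 ± 1.48, Klf6 with 24.97 ± 0.81 and S1pr1 with 21.3 ± 0.17 FPKM. Below them stood Klf2 with 19.6 ± 3.22, Cd69 with 12.9 ± 0.88, Cxcr4 with 2.55 ± 0.64 and Klf3 with 0.687 ± 0.123 FPKM (SD, n = 3). The order in PTMA libraries was the same, with Ccr7 at 159 ± 9.48, Cxcr3 at 35.0 ± 0.70, Klf6 at 25.1 ± 1.55 and S1pr1 at 19.2 ± 1.76 FPKM. Klf2 was at 18.7 ± 1.45, Cd69 at 13.8 ± 1.51, Cxcr4 at 2.53 ± 0.29 and Klf3 at 0.458 ± 0.0442 FPKM there. S1pr1 and Klf2 were the only neighbours in this order whose library values overlapped, S1pr1 being above Klf2 in 4 of 6 libraries. The order of the means was also the same without each library in turn. The FPKM ratio of Klf2 to Klf3 ran from 26.6 to 30.2 in vector and from 34.8 to 48.3 in PTMA libraries, a difference that was not tested.

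The 3 KLF genes were part of a larger family. Among the 15 KLF genes read, Klf13, a factor known for driving Ccl5 in T cells, had the highest level, with 42.3 ± 6.95 FPKM in vector and 37.9 ± 1.12 FPKM in PTMA libraries. Klf6 made up 20.1% and 21.3% of the summed KLF FPKM in the groups, Klf2 15.6% and 15.9%, and Klf3 0.546% and 0.389%. Among the 18 other KLF and SP genes read, 14 were tested, and 3 had a positive and 11 a negative fold change, with a median of -0.12 on the log2 scale beside -0.015 over all genes tested. None passed the threshold, and Sp4, a relative of KLF factors, had the smallest p, at 11.5 ± 1.32 and 9.12 ± 0.87 CPM (log2 fold change -0.33, SE 0.14, edgeR unadjusted p = 0.0399, adjusted p = 0.951). Klf13 itself stood at 398, 365 and 298 CPM in vector and at 314, 314 and 325 CPM in PTMA replicates 1 to 3, so that vector replicate 3 was the lowest and vector replicate 1 the highest library.

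Upstream of Klf2 and beside it among FOXO1 targets, 18 of 18 listed genes were tested, with 9 positive and 9 negative fold changes, a median of -0.013 and 0 genes at an unadjusted p below 0.05. Foxo1, the factor that drives Klf2, stood at 111 ± 17.1 CPM in vector and 101 ± 8.76 CPM in PTMA (log2 fold change -0.14, SE 0.12). Il7r, the receptor gene for the survival cytokine IL-7, stood at 96.5 ± 1.42 and 93.5 ± 1.59 CPM, with a log2 fold change of -0.046 (SE 0.064). Elf4, a factor known to raise Klf2 in CD8 T cells, had the smallest p of this list, 0.0799 in edgeR before adjustment, at 80.5 ± 15.4 and 66.2 ± 7.17 CPM. Tcf7, a factor of naive and memory T cells, had the highest level of the list per length, 214 FPKM in vector and 222 FPKM in PTMA libraries.

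In the S1P pathway, S1pr4 was the dominant receptor gene per length, with 119 ± 16.6 FPKM in vector and 124 ± 5.52 FPKM in PTMA libraries. S1pr1 held 15.1% and 13.3% of the summed FPKM of the 4 S1P receptor genes read, S1pr2 0.9998% and 0.854%, and S1pr3 was near 0. S1pr5 was not found by name among the 27480 genes. Of 20 listed S1P genes 16 were tested, 10 with a positive and 6 with a negative fold change and a median of 0.014, and 0 passed the threshold. Sgpl1, the lyase that degrades S1P, stood at 80.9 ± 6.64 and 85.3 ± 1.22 CPM. Grk2, the kinase that desensitises S1PR1, stood at 435 ± 10.1 and 443 ± 17.7 CPM, whereas the S1P-forming kinase gene Sphk1 had too few counts to be tested. Plpp3, a lipid phosphatase gene, had the smallest p of the list (0.00684 before adjustment in edgeR, 0.951 after) on 0.386 ± 0.176 and 0.0816 ± 0.0088 CPM. Its PTMA libraries had 5, 6 and 5 counts, close to the 3 counts that a count of 0 allows (0.0449 to 0.0546 CPM), and its vector libraries had 33, 18 and 18.

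**Figure D3:**
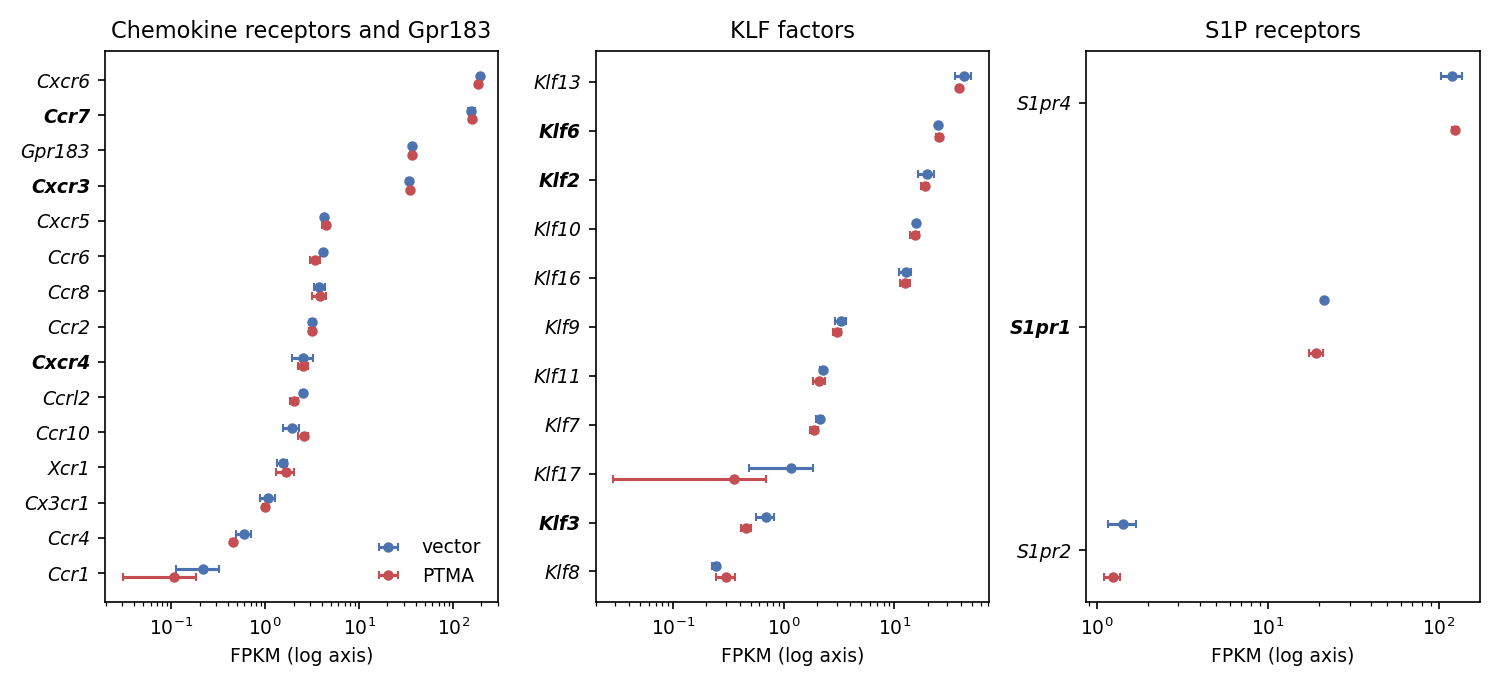
Mean FPKM ± SD (n = 3, logarithmic horizontal axis) of chemokine receptors with Gpr183, of KLF factors and of S1P receptors in vector (blue) and PTMA (red) libraries, with members of the 8 in bold. Genes near 0 are left out, and not all receptors are shown. Ccr7 stands just below Cxcr6, Klf13 stands above Klf6 and Klf2, and S1pr4 stands above S1pr1.

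Cxcr6, a receptor of effector and tissue-resident T cells, exceeded Ccr7 among the chemokine receptors, with 191 ± 3.76 and 186 ± 6.71 FPKM. Ccr7 took 34.9% and 35.8% of the summed FPKM of the 21 receptor genes read, including Gpr183, an oxysterol receptor gene that had 36.8 ± 1.08 and 36.6 ± 1.43 FPKM. Cxcr3 took 7.65% and 7.88% and Cxcr4 0.570% and 0.569%. Of the receptors other than Ccr7, Cxcr3 and Cxcr4, 15 were tested, 5 with a positive and 10 with a negative fold change and a median of -0.039, and 0 had an unadjusted p below 0.05. The smallest p was that of Ccrl2, an atypical receptor gene, at 7.29 ± 0.11 and 5.90 ± 0.51 CPM (log2 fold change -0.31, SE 0.14, edgeR unadjusted p = 0.0529).

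Genes for the ligands were mostly silent in these cells. Of 9 listed, 6 were read and 2 tested, the myosin light chain genes Myl12a (359 ± 46.3 and 400 ± 28.6 CPM) and Myl12b (417 ± 23.1 and 441 ± 15.7 CPM), whose products can bind CD69. Cxcl10 was at 0.0936 and 0.102 CPM on average and Cxcl12 at 0.0651 and 0.0411 CPM, near the level that 3 counts give. Ccl21a was not found by name among the 27480 genes. Downstream of the receptors, 29 of 30 signalling genes were tested, 16 positive and 13 negative, with a median of 0.018 and 0 at an unadjusted p below 0.05. Gnai2, the inhibitory G protein subunit through which chemokine receptors and S1PR1 signal, stood at 982 ± 39.1 and 1002 ± 16.4 CPM. Coro1a, an actin regulator needed for T cell egress, had the highest level of that list, with 937 FPKM in vector and 1003 FPKM in PTMA libraries.

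Genes of rolling, residency and early activation were read from the same fit. Among 11 genes that make or modify selectin ligands, 5 fold changes were positive and 6 negative, and 0 passed the threshold. B4galt1, a galactosyltransferase gene, stood at 84.7, 85.7 and 79.2 CPM in vector and 66.1, 66.7 and 69.1 CPM in PTMA replicates 1 to 3, with no overlap. Its log2 fold change was -0.31 (SE 0.07), with an edgeR unadjusted p of 0.00201 and an adjusted p of 0.807. Selplg, the P-selectin ligand gene, had the highest level per length in that list, 270 and 278 FPKM. Among 15 tested genes of tissue residency, 4 fold changes were positive and 11 negative, with a median of -0.087 beside -0.015 over all genes tested. Bhlhe40, a factor of resident T cells, stood at 147 ± 3.57 and 128 ± 5.63 CPM (log2 fold change -0.20, SE 0.07, edgeR unadjusted p = 0.0145, adjusted p = 0.951). Of the 24 early response genes, the kind induced with Cd69, 12 were positive and 12 negative, with a median of 0.0026. Only Btg2 (150 ± 15.5 and 127 ± 5.55 CPM) and Nr4a3 (30.0 ± 4.39 and 24.1 ± 1.80 CPM) had an unadjusted p below 0.05, both with an edgeR adjusted p of 0.951.

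**Figure D4:**
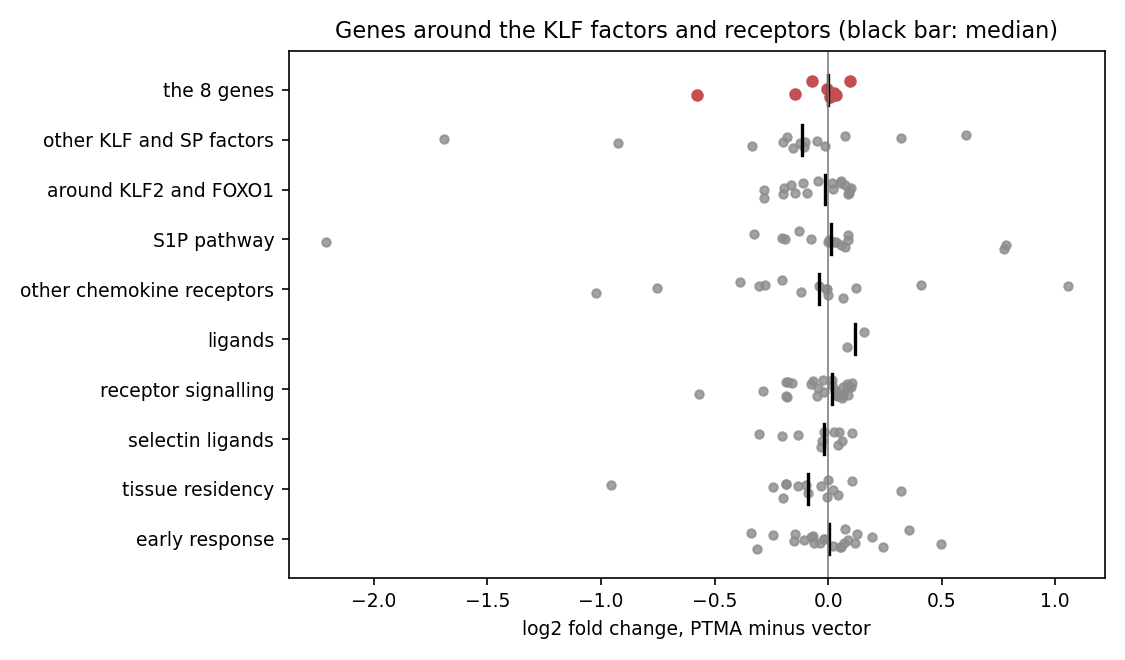
Log2 fold change, PTMA minus vector (horizontal axis), of the 8 genes (red) and of every tested gene in 9 lists around them (grey), with a black bar at the median of each row. The medians of the lists run from -0.12 for other KLF and SP factors to 0.12 for the 2 ligand genes, and Klf3 is the leftmost of the 8.

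Pathway terms written into the table gave the same kind of count. Of the genes under FoxO signaling, which include Klf2 and S1pr1, 108 were tested, 46 positive and 62 negative, and 0 passed the threshold. Chemokine signaling, with Ccr7, Cxcr3 and Cxcr4, had 131 tested genes, 55 positive and 76 negative, and sphingolipid signaling, with S1pr1, had 99, 50 positive and 49 negative, again with 0 past the threshold. The median log2 fold changes of these terms were -0.023, -0.031 and 0.0031, beside -0.015 over all genes tested. At an edgeR unadjusted p below 0.05 stood 7, 3 and 3 of their genes, where 4.65% of all genes tested did. Cytokine-cytokine receptor interaction, which also holds Ccr7, Cxcr3 and Cxcr4, had 120 tested genes, 58 positive and 62 negative. Of these, 1 passed the threshold, none of the 8, and at an unadjusted p below 0.05 stood 4 with a positive and 6 with a negative fold change.

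For each gene the 3 genes with the most similar course over the 6 libraries were sought among 9212 genes, by the root mean square difference of log2 CPM after each gene's own mean was taken off. Nearest to Klf3 were Ptprj (0.103), Btbd7 (0.116) and Lyrm9 (0.124), where Klf3's own root mean square deviation was 0.327. Klf2 was matched most closely by Mgat4b (0.0355), Rfx5 (0.0505) and Fbxw9 (0.0565), against an own deviation of 0.146. For S1pr1 they were Dstn (0.0319), Gbp7 (0.0401) and Axl (0.0413), and for Cxcr4 Atat1 (0.103), Zbtb49 (0.105) and Cdr2 (0.107). Cd69 was nearest to Paip1 (0.0183), Ext1 (0.0226) and Haspin (0.0370), and Klf6 to Ergic3 (0.0172), Ipo5 (0.0220) and Arpc4 (0.0245). Ccr7 was nearest to Ubl7 (0.0176), Kat7 (0.0177) and Nomo1 (0.0177), and Cxcr3 to Slc30a5 (0.0151), Cul2 (0.0187) and Ctso (0.0192). These are descriptions over the same 6 libraries, and none of the 24 differences in the group means of these genes passed the threshold (edgeR adjusted p of 0.951 to 0.997).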

How the data were processed

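RNA of 3 vector and 3 PTMA libraries of OT1 CD8+ T cells was sequenced in pairs after poly(A) selection, per the labels' protocols, which speak of an adipose type and so do not match the cells. The authors deposited whole-number counts per gene and library and, beside them, FPKM, fragments scaled by gene length and depth, per the file headers. The submitters' processing notes name mm8 as build and, as tools, Bowtie 0.12.2, StringTie 1.3.0 and HISAT2 2.0. Which program counted the reads is not given in the sources used here. Positions in the table are on GRCm38: GENCODE M21 held 27405 of the identifiers, 99.7% of them with the same start or end, and the 8 genes had both.

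Counts were tested with edgeR 4.0.16 (R 4.3.3), TMM scaling, filterByExpr with a minimum count of 10 and the quasi-likelihood test, with no term beside group, over 16592 genes. P-values were adjusted by Benjamini-Hochberg over all of them, and a negative log2 fold change is lower in PTMA. CPM was computed with TMM factors. A count of 0 allows up to 3 counts, 0.0449 to 0.0546 CPM, which covers counting error only. On counts simulated for this comparison over 16592 genes, edgeR recovered 44.8% of 67 genes set to a 1.5-fold change, 76.1% of 67 set to 2-fold and 97% of 66 set to 4-fold, and it called 12 unchanged genes. The simulated libraries were drawn independently, without the shift of vector replicate 3, and held more changed genes than passed in the data. These rates can therefore overstate recovery in the data, where Klf3 and Ptma each had an edgeR adjusted p of 0.951. No 2 libraries agreed within sampling noise, the chi-square per gene between replicates being 17.7 to 84.8.

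The 8 genes, the lists and the tests were chosen with earlier results of these data known. Besides the 8, genes were named by a rule: from each list those past the threshold, otherwise at most 4 with the smallest p and up to 2 with the highest FPKM, and direct partners (among them Foxo1, Il7r, Sphk1, Sgpl1, Grk2, Gnai2, S1pr4, S1pr2, Cxcr6, Ccl21a, Cxcl10, Cxcl12). Not all of them are named, and some are not reported here. Single markers, S1pr3 and the genes overlapping Klf3 were picked for naming after their values were seen. Genes of similar course needed a mean of at least 5 CPM and a name other than a predicted-gene or clone name. Alternatives were other scalings and filters, robust edgeR, DESeq2 1.42.0, limma 3.58.1 on log2 FPKM with a pseudocount of 1 or 0.1, a replicate block and each library left out. For limma, a lower filter that keeps Klf3 (mean FPKM from 0.1 up, in place of 1) was added after seeing the data.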

Additional observations from a re-analysis of the deposited data

How the results depend on the processing

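None of the 8 genes passed the threshold in any of the alternatives run. The number of genes passing over the whole table was 2, and it became 47 with DESeq2, 0 with no filter on low counts, 1 with limma on log2(FPKM + 1), 1 with limma on log2(FPKM + 0.1) and 0 to 3 with a library left out: 0 without vector replicate 1, PTMA replicate 1 or PTMA replicate 3. It was 0 with the replicate number as a block, where Klf3 had a log2 fold change of -0.57. Correlations of same-numbered deviations from the group means were -0.12, -0.16 and -0.12 for replicates 1 to 3. Deviations within a group of 3 sum to 0, so these values are not independent of one another. All were negative, so same-numbered libraries did not deviate alike. Whether they shared an animal or batch was not tested. The labels do not give it either.

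Klf3 and S1pr1 stayed negative and Cd69 positive in every alternative that tested them, with leave-one-out ranges of the log2 fold change of -0.69 to -0.45, -0.20 to -0.065 and 0.018 to 0.17. Signs near 0 turned elsewhere. For Klf6 the value was -0.0189 with library totals alone, -0.00291 with upper-quartile scaling and -0.0427 to 0.0354 with a library left out. For Ccr7 it was -0.00280 with library totals alone and -0.0249 to 0.0664 with a library left out. Klf2 ran from -0.153 to 0.0759 and Cxcr3 from -0.00710 to 0.0820 with a library left out. Cxcr4 was at 0.00381 with no filter, 0.00610 with DESeq2, 0.00409 and 0.0126 with limma on FPKM with a pseudocount of 1 and 0.1, 0.0126 with limma on more genes, 0.0138 with the replicate block, and -0.18 to 0.17 with a library left out.

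Library totals in place of TMM moved the median of all genes from -0.015 to -0.042. The filter of a mean FPKM of at least 1 left out Klf3, so those limma fits tested 7 of the 8 genes. A level from counts per kilobase was not run, because the table lists gene positions and no transcript length. Klf3 and Cxcr4 had the fewest counts of the 8, 238 to 562 per library.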
